A study of Homo sapiens with 4 samples.

Results

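The G1/S and DNA replication genes are 51 genes whose products take a cell from G1 into S phase and copy its DNA. They were chosen by name from their known roles, and their messenger RNA was compared between BLU6864-treated and control TPC1 cells. Of the 51 genes, 50 had a row among the 20372 rows of the deposited table, and all 50 had enough reads to enter the test, which covered 12696 genes. The RNA of UHRF1, which keeps DNA methylation through replication, was not analysed here, and the gene entered only the promoter counts. RBL1 had a second row with 1 read in all libraries together, and its main row was used.

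Replication starts at origins. In G1 the origin recognition complex, CDC6 and CDT1 load the MCM2 to MCM7 helicase on DNA, which is called licensing, and in S phase the CDC7-DBF4 kinase, CDC45, GINS and MCM10 turn that helicase on. DNA polymerases then copy both strands with the PCNA clamp, its RFC loader, the single-strand binding protein RPA, and the enzymes that finish the lagging strand. Many of these genes are transcribed through activator E2F factors, which the retinoblastoma family restrains. Cyclin E with CDK2 helps to release these factors. E2F1, E2F2 and E2F3 are activators, and E2F7 and E2F8 are repressors that are themselves E2F targets. Growth factor receptor signalling is a usual input to the G1/S decision.

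TPC1 is an established human papillary thyroid cancer line with a CCDC6-RET fusion, which makes the RET receptor kinase active without its ligand. BLU6864 is a RET kinase inhibitor. It was given for 6 h in 2 libraries, and 2 libraries came from cells given the solvent DMSO. All 4 are from this 1 line, grown in DMEM with serum. The labels give the dose as 100 micromolar, whereas the study's methods give a nanomolar one, so the dose is uncertain. The labels give DMSO no time and its columns carry 24 h in their names, so effects of the inhibitor and of hours in culture cannot be told apart. Titles of both BLU6864 libraries carry a re-analysis mark. Nothing says that the libraries of a group came from separate cultures, so p-values measure only the spread between these libraries, which may be technical.

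Total counts per library ran from 23750509 to 28305571. Of the thyroid markers, PAX8 was abundant, with a mean of 20807 normalized counts with BLU6864 and 26795 with DMSO, TG and FOXE1 were present, and NKX2-1 and TSHR had 0 reads. The 7 thyroid markers summed to 20578 and 22019 normalized counts with BLU6864 and to 28272 and 26855 with DMSO. The 6 epithelial markers summed to 3032 and 2911 with BLU6864 and to 4336 and 3723 with DMSO. For other cell types, leukocyte markers summed to 50.4 and 44.0 with BLU6864 and to 22.9 and 23.0 with DMSO, with CD3E at 0, and 5 fibroblast markers summed to 368 and 392 with BLU6864 and to 266 and 224 with DMSO, with DCN and COL1A2 at 0. Of the endothelial markers, CDH5 and VWF summed to 17.9 and 10.3 with BLU6864 and to 3.66 and 6.57 with DMSO. These sums move with the groups, but most of each comes from few genes. Those are PAX8, KRT8 with KRT18, CD14, PDGFRB and VWF. Epithelial means went from DMSO to BLU6864 as 1767 to 871 (KRT18), 1959 to 1752 (KRT8) and 130 to 111 (KRT19). The other epithelial markers rose, KRT7 from 170 to 223, EPCAM from 3.84 to 8.59 and CDH1 from 0 to 5.61. The part of these sums in the results was not tested. The replicates of DMSO lay further apart than those of BLU6864, with a median absolute log2 ratio between replicates of 0.19 against 0.08 over the 50 genes, and DMSO replicate 1 was the higher one in 33 of 50.

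Levels below are normalized counts, the read counts divided by a size factor for each library. Changes are log2 fold changes of BLU6864 over DMSO ± SE, and a gene is called lower or higher at an adjusted p under 0.05 (edgeR quasi-likelihood test, Benjamini-Hochberg over 12696 genes, n = 2 and 2). A call is described as kept where it held in all 11 other ways of fitting the data, 4 of which leave out a library.

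With BLU6864, 14 of the 50 genes were lower, 5 were higher and 31 were not called. That is 28% lower beside 22.0% of all tested genes, and 10% higher beside 20.3%. The median log2 fold change of the 50 was -0.11, against 0.01 over all tested genes, and the median absolute log2 fold change was 0.23 against 0.28. Only E2F7 moved by more than 1 on the log2 scale, which is 2% of these genes and 8.98% of all genes tested. At a log2 fold change beyond 0.5 with an unadjusted p under 0.01, 9 were lower and 1 was higher, beside 12.5% and 11.0% of all genes. The 2 libraries of each group did not overlap for 32 of the 50, 23 lower and 9 higher, beside 70.8% of all genes in either direction. In bulk RNA, fewer cells in a phase of the cycle and less RNA per cell cannot be told apart.

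**Figure D1:**
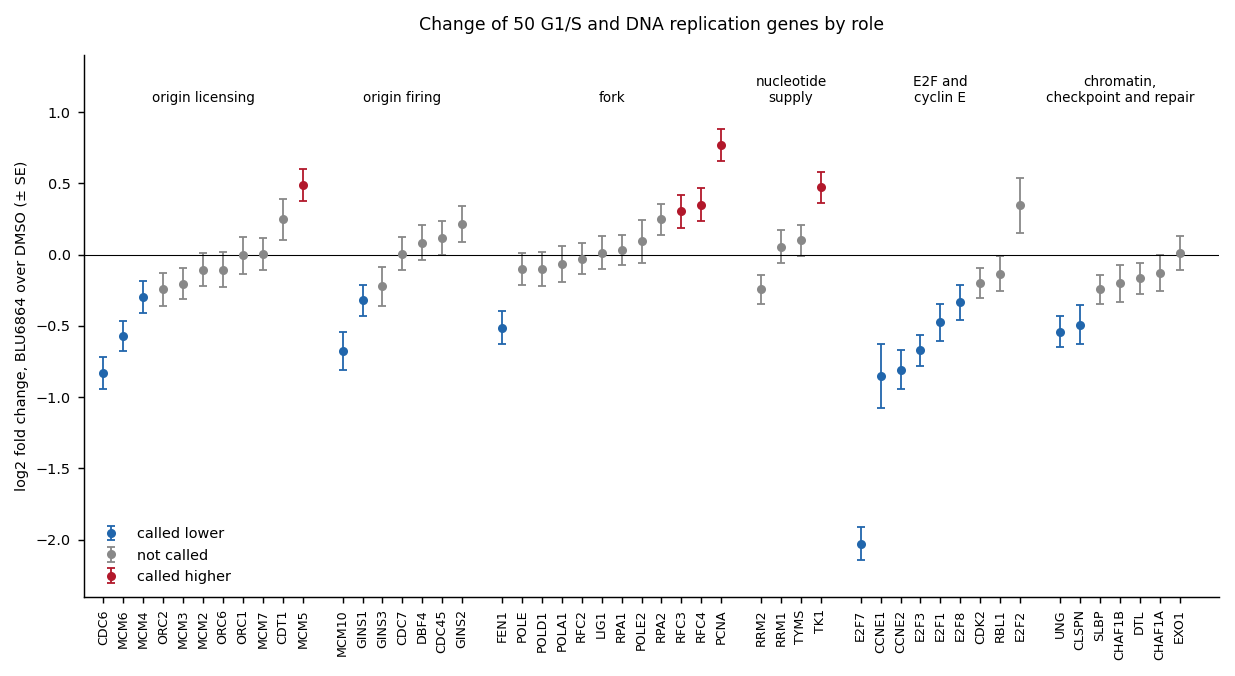
Log2 fold change of BLU6864 over DMSO (y axis, bars ± SE) for the 50 tested genes, sorted within their role, with blue for called lower, red for called higher and grey for not called. E2F7 stands apart at -2.03, the highest value is that of PCNA at 0.77, and the E2F and cyclin E genes hold 6 of the 14 called lower.

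Promoter windows show where these genes carry E2F sequence. RefSeq windows of 300 bases (GRCh38.p14, 250 before the start and 50 from it) were matched by symbol for 45 of the 51 genes. None was matched for MCM4, MCM5, RPA2, E2F8, CCNE2 and CDK2. Where a symbol had several windows, only the first listed on a main chromosome was used, here and in the shares below. Any other promoter of a gene was not searched. The 4 spellings TTTCCCGC, TTTCGCGC, TTTGCCGC and TTTGGCGC of the E2F motif, on either strand, were present in 24 of the 45 windows, or 53.3%, beside 3.33% of 27305 windows in the table and 5.43% of 9614 windows of tested genes. CCAAT, on either strand, was in 25 of 45, or 55.6%, beside 35.7% of all windows. The strand-reversed forms of the E2F spellings can overlap the forward ones, and such runs were counted as separate matches. The CDC6, MCM6 and E2F1 windows are shown for genes that fell and the PCNA window for the gene that rose most, each from 180 bases before the start to 29 after it, 5′ to 3′ on the gene's strand, with E2F matches in capitals. They lie at chr17:40287699-40287908 on the plus strand for CDC6 and, on the minus strand, at chr2:135876414-135876623 for MCM6, chr20:33686356-33686565 for E2F1 and chr20:5126593-5126802 for PCNA.
CDC6: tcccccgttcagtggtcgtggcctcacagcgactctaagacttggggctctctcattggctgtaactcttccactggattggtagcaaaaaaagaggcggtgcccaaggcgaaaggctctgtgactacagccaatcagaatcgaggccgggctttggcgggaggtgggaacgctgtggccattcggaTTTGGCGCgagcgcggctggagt
MCM6: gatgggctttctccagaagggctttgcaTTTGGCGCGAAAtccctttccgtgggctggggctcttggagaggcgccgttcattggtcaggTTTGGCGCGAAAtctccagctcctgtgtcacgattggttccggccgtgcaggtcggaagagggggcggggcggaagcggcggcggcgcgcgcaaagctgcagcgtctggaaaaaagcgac
E2F1: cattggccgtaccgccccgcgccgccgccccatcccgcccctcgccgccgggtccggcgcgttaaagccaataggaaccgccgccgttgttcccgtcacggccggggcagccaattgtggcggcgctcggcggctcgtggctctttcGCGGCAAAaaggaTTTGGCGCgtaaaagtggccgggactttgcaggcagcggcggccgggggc
PCNA: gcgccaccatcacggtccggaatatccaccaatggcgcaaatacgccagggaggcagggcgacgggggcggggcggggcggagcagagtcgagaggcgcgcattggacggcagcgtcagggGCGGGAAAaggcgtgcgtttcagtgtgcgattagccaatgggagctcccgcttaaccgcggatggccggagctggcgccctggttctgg

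CDC6 has 1 match, TTTGGCGC, 7 bases after the start base. MCM6 has 4, in 2 runs where TTTGGCGC overlaps GCGCGAAA, the reverse complement of TTTCGCGC, from 152 to 141 and from 90 to 79 bases before the start. E2F1 has 2 matches within 33 bases before the start, and PCNA has 1, GCGGGAAA, from 59 to 52 bases before it. The gene that fell most, E2F7, has 0 E2F matches and 4 CCAAT matches in its window. A match is a run of letters and does not show binding.

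The E2F and cyclin E genes had the lowest median of the roles, at -0.47, with 6 of 9 lower and 0 higher. Their share called lower was 66.7% beside 22.0% of all tested genes, of which 20.3% were higher. The 15 genes of this role among the 73 others described below did not share this pattern. Of those, 4 were lower (26.7%) and 2 higher (13.3%), with a median of -0.0035. E2F7 fell most of the 9. It stood at 367 and 424 normalized counts with BLU6864 and at 1638 and 1604 with DMSO, a 4.08-fold lower level (log2 fold change -2.03 ± 0.12, adjusted p 1.22e-13). Both DMSO values were far above both BLU6864 values, and the call was kept. E2F7 (ENSG00000165891) lies at chr12:77415027-77459360 in hg19. The activator E2F3 was at 911 and 924 with BLU6864 and 1514 and 1419 with DMSO, and fell by 0.67 ± 0.11 (adjusted p 1.18e-05, kept). Cyclin E2, the CDK2 partner encoded by CCNE2, was at 241 and 266 with BLU6864 and 408 and 484 with DMSO, and fell by 0.81 ± 0.13 (adjusted p 2.35e-05, kept). For both genes the groups were well separated. Cyclin E1, encoded by CCNE1, was at 49.4 and 45.0 with BLU6864 and 95.2 and 74.4 with DMSO (-0.85 ± 0.22, adjusted p 0.00323). Its 2 DMSO values lay further apart than its BLU6864 values, and its call was lost with DESeq2 (adjusted p 0.0515) and without BLU6864 replicate 2 (0.0673).

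The other members of this group moved less. E2F1, the founding activator, fell by 0.47 ± 0.13 (adjusted p 0.00431), and the repressor E2F8 by 0.33 ± 0.12 (adjusted p 0.0309). The E2F1 call was lost without BLU6864 replicate 1 (0.0548) or 2 (0.117). The E2F8 call was lost without either BLU6864 replicate (0.184 and 0.296), with library totals as the only scaling (0.0576) and with DESeq2 (0.101). CDK2, the kinase, was at -0.20, and RBL1, a retinoblastoma family member, was at -0.13, neither called. The activator E2F2 was the 1 gene of the role with a positive value, 0.35 ± 0.19 (adjusted p 0.155), and it was called higher without DMSO replicate 1 (0.0332). The groups did not overlap for any of the 9 genes, 8 of them lower. Beside this, 70.8% of all tested genes did not overlap in either direction. For E2F2 the groups almost touched, at 99.815 and 124.57 with BLU6864 and 99.768 and 76.596 with DMSO. The number called lower in this role ran from 3 to 6 over the alternatives, lowest without BLU6864 replicate 2. CCNE2 shares 912 bp of its span with NDUFAF6, a mitochondrial complex I assembly factor with 2382 reads in all that was at 0.057 and not called. It also shares 1977 bp with INTS8, an Integrator complex subunit with 18733 reads in all against 1401 for CCNE2. INTS8 itself was at -0.35 ± 0.11 (adjusted p 0.0119, lost without BLU6864 replicate 1 or 2 at 0.124 and 0.323). Whether counting used strand is not given in the sources used here, so reads from the overlap cannot be assigned, and their part in the CCNE2 value was not tested.

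Origin licensing genes were split. Of 11, 3 were lower, 1 was higher and 7 were not called, with a median of -0.11. In shares, 27.3% were lower beside 22.0% of all tested genes, and 9.09% higher beside 20.3%. CDC6, which loads the helicase, was at 602 and 540 normalized counts with BLU6864 and 999.5 and 1034 with DMSO (-0.83 ± 0.11, adjusted p 1.34e-06, kept). MCM6 was at 1153 and 1085 with BLU6864 and 1754 and 1575 with DMSO (-0.57 ± 0.11, adjusted p 0.000107, kept). Both genes had every BLU6864 value below every DMSO value. MCM5, another subunit of the same helicase, went the other way, at 2987 and 3144 with BLU6864 and 2426 and 1961 with DMSO (0.49 ± 0.11, adjusted p 0.00102). Its call was lost without BLU6864 replicate 2 (0.0678). MCM4 was at 3715 and 3526 with BLU6864 and 4879 and 4044 with DMSO (-0.30 ± 0.11, adjusted p 0.0361), so that its DMSO replicates differed by more than the gap between the groups. The MCM4 call was lost without BLU6864 replicate 1 (0.207), BLU6864 replicate 2 (0.386) or DMSO replicate 1 (0.18) and with library totals only (0.0705).

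The remaining licensing genes were not called. MCM2, MCM3 and MCM7 were at -0.11, -0.20 and 0.0068. The origin recognition genes ORC1, ORC2 and ORC6 were at -0.0053, -0.24 and -0.11, and CDT1, the helicase loading factor, was at 0.25. Single libraries set some of these. Without DMSO replicate 1, ORC2 was called lower (-0.34, adjusted p 0.00396) and CDT1 higher (0.51, 0.000593). Without DMSO replicate 2, MCM2 (-0.26, 0.0136) and MCM3 (-0.31, 0.00319) were called lower.

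Per kilobase of canonical transcript, the MCM2 to MCM7 levels ran from 298 (MCM6) to 891 (MCM4) normalized counts with BLU6864 and from 374 (MCM2) to 1098 (MCM4) with DMSO. MCM5 stood at 887 with BLU6864 and 634 with DMSO on this scale, and MCM6 at 298 and 443. The subunits join the helicase in equal number, and their transcripts differed about as widely in both groups, with a highest over lowest ratio of 2.99 with BLU6864 and 2.93 with DMSO. Within a library, the count of MCM5 divided by that of MCM6 was 2.59 and 2.90 with BLU6864 and 1.38 and 1.25 with DMSO. This and the ratios below were chosen after the values were seen and were not tested.

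**Figure D2:**
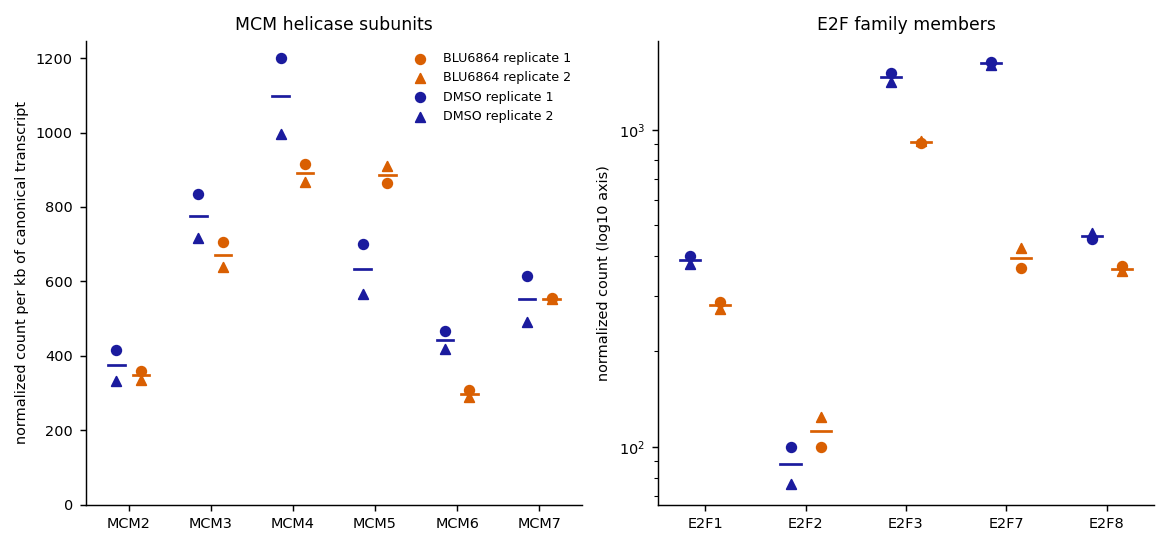
Left, normalized counts per kilobase of canonical transcript for MCM2 to MCM7; right, normalized counts of the E2F genes on a log10 axis. Each point is a library, circles for replicate 1 and triangles for replicate 2, orange for BLU6864 and blue for DMSO, with the group mean as a bar; MCM5 lies higher and MCM6 lower with BLU6864, and E2F7 shows the widest gap.

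Of 7 origin firing genes, 2 were lower and 0 higher, with a median of 0.0084. Lower calls made up 28.6% beside 22.0% of all tested genes, and 20.3% of all tested genes were higher. MCM10, which helps the loaded helicase open DNA, was at 246 and 290 normalized counts with BLU6864 and 451 and 410 with DMSO (-0.68 ± 0.13, adjusted p 0.000183, kept). GINS1, a part of the GINS complex that travels with the helicase, was at 980.3 and 1025 with BLU6864 and 1192 and 1319 with DMSO (-0.32 ± 0.11, adjusted p 0.0194). Neither gene overlapped between the groups. The GINS1 call was lost without BLU6864 replicate 1 (0.262) or 2 (0.188). Its partners GINS2 and GINS3 were at 0.22 and -0.22, CDC45 at 0.12, and the kinase CDC7 and its activator DBF4 at 0.0084 and 0.083, none called. Without DMSO replicate 2, GINS2 (0.35, adjusted p 0.0101) and DBF4 (0.28, 0.022) were called higher and GINS3 (-0.32, 0.0336) lower.

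Fork genes held 3 of the 5 higher calls. Of 12, 3 were higher, 1 lower and 8 not called, with a median of 0.022. The share called higher, 25%, was close to the 20.3% of all tested genes, and 8.33% were lower beside 22.0%. PCNA, the sliding clamp, was at 5353 and 5835 normalized counts with BLU6864 and 3129 and 3463 with DMSO (0.77 ± 0.11, adjusted p 3.12e-06), a 1.70-fold higher level that was kept. It also had the highest level per kilobase of the 50 genes, 4384 with BLU6864 and 2583 with DMSO. FEN1, the nuclease that trims Okazaki fragments on PCNA, moved the opposite way, at 1010 and 908 with BLU6864 and 1525 and 1215 with DMSO (-0.51 ± 0.12, adjusted p 0.000903). The FEN1 call was lost without BLU6864 replicate 2 (0.085). The count of PCNA divided by that of FEN1 was 5.30 and 6.43 with BLU6864 and 2.05 and 2.85 with DMSO.

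Of the clamp loader subunits in this group, RFC4 was at 1263 and 1256 with BLU6864 and 885 and 1100 with DMSO (0.35 ± 0.11, adjusted p 0.0152), and RFC3 was at 824 and 762 with BLU6864 and 598 and 693 with DMSO (0.30 ± 0.12, adjusted p 0.0379). RFC2 was at -0.027. For both called genes the groups were close but did not overlap. The RFC4 call was lost without BLU6864 replicate 1 (0.137), BLU6864 replicate 2 (0.176) or DMSO replicate 1 (0.094), and the RFC3 call without the same libraries (0.335, 0.173 and 0.139) and with DESeq2 (0.106). The polymerase genes POLA1, POLD1, POLE and POLE2 were at -0.066, -0.10, -0.10 and 0.094, the ligase LIG1 at 0.013, and RPA1 and RPA2 at 0.032 and 0.25, none called. RPA2 was called higher without DMSO replicate 2 (0.38, adjusted p 0.000575), with library totals only (0.0332) and with a replicate block (0.036). FEN1 shares 4265 bp of its span with FADS2, a fatty acid desaturase, which was at 0.076, and 166 bp with TMEM258, which had 8451 reads in all against 4706 for FEN1 and was at 0.25, neither called.

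Nucleotide supply genes gave 1 higher call of 4, or 25% beside 20.3% of all tested genes, and a median of 0.079. TK1, the salvage kinase for thymidine, was at 1577 and 1645 normalized counts with BLU6864 and 1245 and 1081 with DMSO (0.47 ± 0.11, adjusted p 0.000908), and its call was lost without BLU6864 replicate 2 (0.0706). The ribonucleotide reductase subunit RRM2 was at -0.24 (adjusted p 0.0612), and was called lower without DMSO replicate 2 (-0.28, 0.00734) and with a replicate block (0.0341). Its partner RRM1 was at 0.057, and TYMS, which makes thymidylate, at 0.10, neither called. TYMS shares 3255 bp of its span with ENOSF1, which was higher by 0.33 ± 0.12 (adjusted p 0.0276), a call lost with DESeq2 (0.0828) and without BLU6864 replicate 1 (0.0918), BLU6864 replicate 2 (0.344) or DMSO replicate 1 (0.19). The count of TK1 divided by that of RRM2 was 0.598 and 0.626 with BLU6864 and 0.389 and 0.353 with DMSO.

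Chromatin, checkpoint and repair genes had 2 lower calls among 7 tested, or 28.6% beside 22.0% of all tested genes, and a median of -0.20. UNG, the uracil-DNA glycosylase, was at 789 and 801 normalized counts with BLU6864 and 1176 and 1144 with DMSO (-0.54 ± 0.11, adjusted p 0.000221, kept). CLSPN, the adaptor claspin that carries the replication checkpoint signal, was at 309 and 318 with BLU6864 and 499 and 383 with DMSO (-0.49 ± 0.14, adjusted p 0.00511). The DMSO replicates of CLSPN were far apart, and its call was lost without BLU6864 replicate 1 (0.0765), BLU6864 replicate 2 (0.052) or DMSO replicate 1 (0.0554). SLBP, which binds histone mRNA, was at -0.24 (adjusted p 0.0599), and was called lower without DMSO replicate 1 (0.011) or 2 (0.027) and with a replicate block (0.0375). The CAF-1 histone chaperone genes CHAF1A and CHAF1B were at -0.13 and -0.20, DTL, which targets CDT1 for destruction, at -0.17, and the exonuclease EXO1 at 0.013, none called. CHAF1A was called lower without DMSO replicate 2 (-0.29, adjusted p 0.0187).

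**Figure D3:**
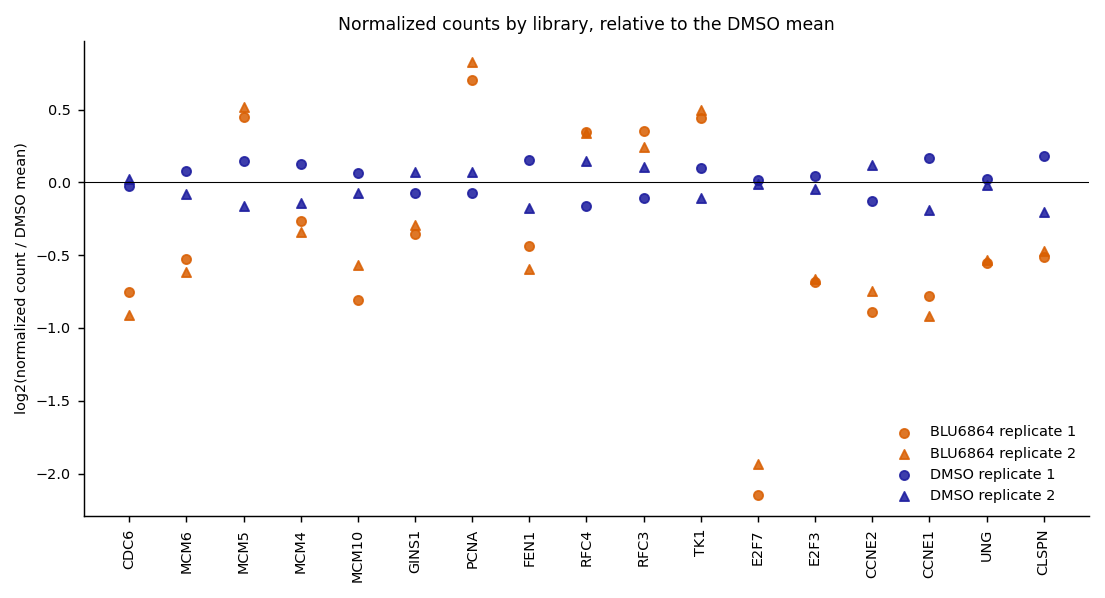
Log2 of each library's normalized count over the mean of DMSO (y axis) for 17 genes called in each role with the smallest adjusted p, orange for BLU6864 and blue for DMSO, circles for replicate 1 and triangles for replicate 2. The points of the groups do not overlap for any of these genes, which were picked as called, and 70.8% of all tested genes do not overlap either. The E2F7 points lie lowest, and the DMSO replicates of CCNE1, CLSPN and FEN1 are visibly apart.

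The 3 roles with 0 higher calls in edgeR were E2F and cyclin E, origin firing, and chromatin, checkpoint and repair. They hold only 9, 7 and 7 tested genes, and 20.3% of all tested genes were called higher. At an unadjusted p under 0.05, with DESeq2 and with limma voom they again had 0 higher genes. These counts come from the same libraries and the roles were picked for them, so they are no further support. With a library left out, 2 origin firing genes were called higher without DMSO replicate 2 (GINS2 and DBF4), and 1 gene of the E2F and cyclin E role without DMSO replicate 1 (E2F2). Over all roles, 8 of the 19 calls were kept in all 11 alternatives. These were 7 lower, CDC6, MCM6, MCM10, E2F7, E2F3, CCNE2 and UNG, and 1 higher, PCNA. The other 11 calls were lost in at least 1 alternative, none changed direction, and 12 of the 31 uncalled genes were called in at least 1. The uncalled genes had values from -0.24 to 0.35 with SEs of 0.10 to 0.19. In simulated counts 50% of genes changed 1.5-fold were recovered. The simulation gave every gene the same spread and changed 50 genes at each size. In these data 2790 genes were called lower and 2574 higher, so the simulation sets no limit of detection here. MCM4, GINS1 and RFC3 were called at smaller changes, -0.30, -0.32 and 0.30, though these calls were not kept. MCM6 and UNG, lower by 1.48-fold and 1.45-fold, were also below 1.5-fold, and their calls were kept. Small changes could still be missed with 2 libraries a group. Reads could be shared with copies for the 10 genes that have symbols of the processed pseudogene form in the reference table, 3 each for PCNA, RRM2, RPA2 and DBF4, 2 each for E2F3, UNG and TYMS, and 1 each for ORC1, RFC3 and FEN1. Spans of 14 of the 50 genes overlap another row of the table. The part of either in these values was not tested. Leaving out BLU6864 replicate 2 took the counts to 7 lower and 1 higher, and leaving out DMSO replicate 2 took them to 20 lower and 8 higher.

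**Figure D4:**
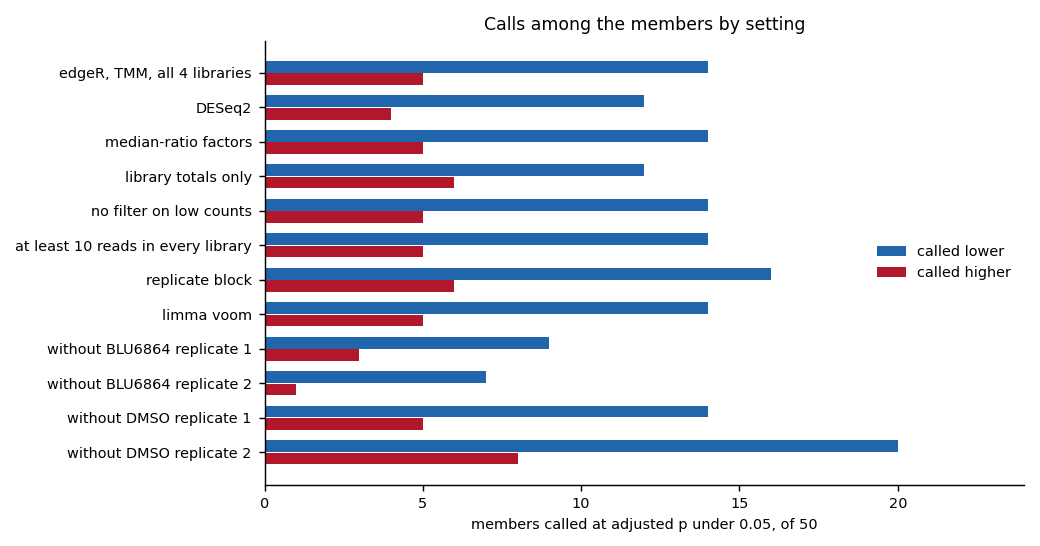
Number of the 50 genes called lower (blue) and higher (red) at an adjusted p under 0.05 (x axis) in the edgeR fit of all 4 libraries and in 11 alternatives (y axis). More of these genes are lower than higher in every fit shown. Over all tested genes this was also so, except with library totals only (2497 lower and 2989 higher).

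Tested genes with and without an E2F match had nearly the same median change. The 23 with at least 1 match had a median log2 fold change of -0.10, with 6 lower, 2 higher and 15 not called, and the 21 with none had a median of -0.11, with 5 lower, 2 higher and 14 not called. CCAAT was in 9 of 11 windows of genes called lower, 1 of 4 of those called higher and 14 of 29 of those not called. These counts were not tested.

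**Figure D5:**
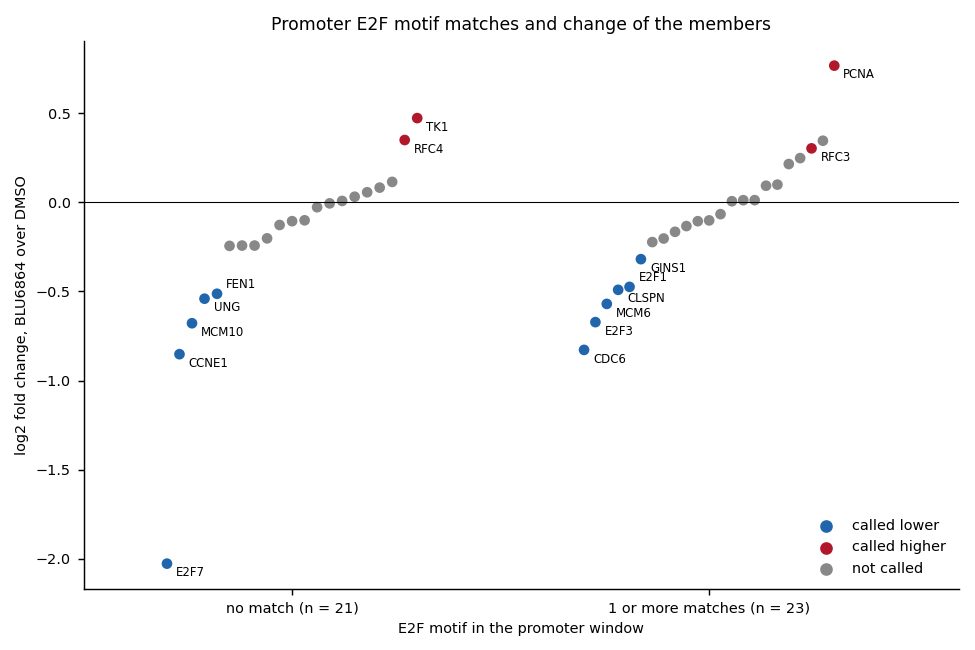
Log2 fold change of BLU6864 over DMSO (y axis) of the 44 tested genes with a promoter window, sorted from low to high within the 21 without and the 23 with an E2F motif match (x axis), with called genes named. Both sets run from called lower to called higher genes, from -2.03 to 0.47 without a match and from -0.83 to 0.77 with one.

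Of 73 other genes of the same pathways, 14 were lower, 12 were higher and 47 were not called, with a median log2 fold change of 0.0020. That is 19.2% lower beside 22.0% of all tested genes, and 16.4% higher beside 20.3%. CTPS1, which makes CTP, fell by 1.47 ± 0.11 (adjusted p 5.47e-11), from a mean of 1113 normalized counts with DMSO to 400 with BLU6864, and SHMT1, a folate cycle enzyme, rose by 1.14 ± 0.12 (8.95e-09), from 605 to 1333. The clamp loader subunits moved in both directions, RFC1 at -0.87 ± 0.11 (3.84e-07) and RFC5 at 0.63 ± 0.12 (0.000148). The checkpoint kinase ATR was at -0.74 ± 0.12 (1.26e-05) and TIMELESS, a fork protection factor, at 0.50 ± 0.11 (0.000495). CDCA7, a cofactor of the HELLS chromatin remodeller, was at -1.01 ± 0.14 (1.28e-06), and MCM8, a helicase outside MCM2 to MCM7, at -0.63 ± 0.12 (9.44e-05). The phosphatase CDC25A, which activates CDK2, was at -0.76 ± 0.16 (0.000423), and SKP2, a ubiquitin ligase subunit that targets the CDK inhibitor p27, at -0.47 ± 0.11 (0.000768). The SKP2 call was lost without BLU6864 replicate 2 (0.0626). The other 9 named here kept theirs in all 11 alternatives. The counts called in these 73 genes ran from 7 to 21 lower and from 3 to 20 higher with 1 library left out, with 7 lower without either BLU6864 replicate, 3 higher without BLU6864 replicate 2, and 21 lower and 20 higher without DMSO replicate 2.

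Further ratios compare partners within a library. The count of E2F7 divided by that of E2F8, both repressors, was 0.986 and 1.19 with BLU6864 and 3.63 and 3.40 with DMSO. The count of E2F2 divided by that of E2F3, both activators, was 0.110 and 0.135 with BLU6864 and 0.0659 and 0.0540 with DMSO. CCNE2 divided by CDK2 was 0.181 and 0.198 with BLU6864 and 0.266 and 0.315 with DMSO. In each case the libraries of the groups did not overlap, for pairs picked after the values were seen.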

How the data were processed

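RNA-seq counts were analysed for 4 TPC1 libraries, 2 with BLU6864 and 2 with DMSO, grouped by the labels. Per the labels, TruSeq libraries were read as 50 bp single ends, and the submitters' processing notes name STAR 2.3, hg19 and DESeq2. In the study's methods the reads are paired-end and the STAR release is later. How reads were counted, with which annotation and strand setting, was not given in the sources used here. Raw counts per gene were deposited in 1 table. Beside them the authors gave normalized counts, a signal in which a DESeq2 size factor for each library divides the counts. Its columns of fold changes and p-values from the authors' own comparison were not used. Because reads can be shared between overlapping genes and near-identical copies, values of such genes are uncertain. Coordinates of genes are those of the table, in hg19.

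The test was the two-sided quasi-likelihood F test of edgeR 4.0.16 (R 4.3.3) on counts kept by filterByExpr, with TMM factors and group as the sole term, with Benjamini-Hochberg adjustment over 12696 genes and calls at an adjusted p under 0.05. SE was derived from the F statistic. The alternatives were DESeq2 1.42.0, limma 3.58.1 voom, median-ratio factors, library totals only, no filter, a filter of 10 reads in every library, a replicate block, and leaving out each library. In that last case the lone library is assumed to vary like the other group. Levels per kilobase used canonical transcript lengths of the GENCODE annotation of GRCh38, matched by Ensembl identifier. On counts simulated for BLU6864 against DMSO over 12696 genes, 50% of genes set to a 1.5-fold change and 94% of genes set to a 2-fold change were recovered, with 6 false calls among 177. Each size of change was set in 50 genes, and every gene had the same spread, which was not estimated from these data.

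The genes, lists and tests were chosen with earlier results of these data known. In each role, values in every library are given for up to 4 called genes with the smallest adjusted p, and up to 10 called genes of the 73 others are named by adjusted p. INTS8, NDUFAF6, FADS2, TMEM258, ENOSF1 and the ratios were chosen after their values were seen.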

Additional observations from a re-analysis of the deposited data

How the results depend on the processing

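The counts of genes called lower and higher were within 1.5 times the 14 and 5 of the edgeR fit with DESeq2 (12 and 4), median-ratio factors (14 and 5), library totals only (12 and 6), no filter on low counts (14 and 5), 10 reads in every library (14 and 5) and limma voom (14 and 5). With 1 library left out they ran from 7 to 20 lower and from 1 to 8 higher, and for the 73 other genes from 7 to 21 and from 3 to 20. Over all tested genes the same fits called 1490 lower and 1250 higher without BLU6864 replicate 2 and 3621 and 3311 without DMSO replicate 2, against 2790 and 2574. The cause was not tested. At a log2 fold change beyond 0.5 with p under 0.01, the 1 gene higher became 3 with library totals only and 2 with 10 reads in every library, and ran from 1 to 4 with 1 library left out. With library totals only, the median of all tested genes was 0.06 in place of 0.01.

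With a replicate block, 16 genes were lower and 6 higher. The labels give both groups the numbers 1 and 2 but no shared day. The deviations of same-numbered libraries from their group means correlated at 0.14 over 12696 genes. With 2 libraries a group, the deviations of replicate 2 mirror those of replicate 1, so only 1 pair is independent. This value therefore cannot show whether same-numbered libraries were handled together.

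No called gene changed direction. ORC1, at -0.0053, was at 0.036 with library totals only, 0.0092 with 10 reads in every library and 0.0013 with a replicate block, and RFC2 was at 0.015 with library totals only. With 1 library left out, uncalled genes that changed sign ranged from -0.13 to 0.13 (ORC1), -0.23 to 0.0066 (ORC6), -0.26 to 0.061 (MCM2), -0.15 to 0.17 (MCM7), -0.085 to 0.094 (CDC7), -0.10 to 0.28 (DBF4), -0.20 to 0.073 (POLA1), -0.21 to 0.011 (POLD1), -0.062 to 0.24 (POLE2), -0.044 to 0.10 (RPA1), -0.11 to 0.15 (LIG1), -0.089 to 0.21 (RRM1), -0.29 to 0.055 (CHAF1A) and -0.056 to 0.076 (EXO1). With 2 libraries a group, changes of 1.5-fold were recovered in part only in simulated counts. Their spread and share of changed genes were set and not estimated from these data.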
